A study of Mus musculus with 6 samples.

Results

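The 8 genes described here encode the 4 adenosine receptors (*Adora1*, *Adora2a*, *Adora2b* and *Adora3*), the cell-surface enzymes that make adenosine from ATP (*Entpd1* and *Nt5e*), adenosine deaminase (*Ada*) and an adenosine transporter (*Slc29a1*). They were taken by gene symbol, 8 of the 55416 genes in the deposited table, and all 8 are in it. Their transcripts were counted by RNA-seq in coronary endothelial cells (ECs) of mouse hearts at E15.5, in 3 Control and 3 Wt1KO libraries. Control embryos (ControlΔEC) were Pdgfb CreERT2/+, Wt1 +/+ and R26 mTmG/+, and Wt1KO embryos (Wt1KOΔEC) were Pdgfb CreERT2/+, Wt1 loxP/loxP and R26 mTmG/+. Both genotypes therefore carried the tamoxifen-inducible Cre, driven by *Pdgfb* in ECs, and the membrane GFP reporter by which the cells were sorted, and the dams of both received tamoxifen at 75 mg/kg by gavage from E11.5 to E13.5. Cells that did not recombine the reporter were not collected, and a sorted cell can carry the reporter without having lost *Wt1*. Whether replicate libraries came from separate litters is not given in the sources used here, so the p-values measure the spread between these libraries.

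Extracellular ATP released by stressed or active cells is broken down at the cell surface, first to AMP by the ectonucleotidase encoded by *Entpd1* (known as CD39) and then to adenosine by the 5′-nucleotidase encoded by *Nt5e* (CD73). Adenosine acts on G protein-coupled receptors: those encoded by *Adora2a* and *Adora2b* raise cyclic AMP, and those encoded by *Adora1* and *Adora3* lower it. The signal ends when adenosine enters the cell through equilibrative transporters such as that of *Slc29a1* or is deaminated to inosine by the enzyme of *Ada*. In blood vessels this system is known for dilating coronary arteries, limiting leukocyte adhesion and responding to low oxygen.

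The targeted gene, *Wt1*, which encodes a zinc finger transcription factor, had 6489, 5404 and 4287 counts in the Control libraries and 547, 655 and 538 counts in the Wt1KO libraries (log2 fold change -2.91, standard error 0.22, adjusted p = 0.00319, edgeR's quasi-likelihood test). Total counts ranged from 26037324 to 44779020 per library, so that 3 counts, taken here as the floor of detection in a library, correspond to 0.0608 to 0.119 CPM (counts scaled to a common library total with TMM factors). The floor covers counting error only, because the amplified reads carry no molecular identifiers. Ribosomal *Rn18s* took 13.2 to 15.3% of the counts in Control and 21.1 to 26.5% in Wt1KO libraries. Endothelial markers were abundant in both genotypes, summing to 5688 to 6863 CPM over 10 genes in Control and 5760 to 6633 CPM in Wt1KO libraries, with *Pecam1* at 1634 and 1574 CPM on average. Markers of other cells were present as well. The 10 macrophage markers, led by *Csf1r*, summed to 497, 967 and 326 CPM in Control replicates 1, 2 and 3 and to 261 to 360 CPM in Wt1KO libraries, and each of them had a log2 fold change below 0 (6 of 10 without Control replicate 2). Fibroblast markers, led by *Col3a1*, summed to 678 to 982 CPM in Control and 1346 to 1553 CPM in Wt1KO, and endocardial markers to 336 to 426 CPM and 711 to 804 CPM. Of the 5 endocardial markers the most abundant over the 6 libraries was *Plvap*, which encodes a protein of endothelial fenestrae and was itself higher in Wt1KO (68.1 ± 12.9 CPM in Control and 338 ± 20.5 CPM in Wt1KO, SD, n = 3 each; adjusted p = 0.00319, edgeR). Erythroid markers, led by *Hba-a1*, summed to 6575 to 14370 CPM in Control and 5142 to 8545 CPM in Wt1KO. Of the 9 tested, 6 had a log2 fold change below 0, but *Hbb-y* and *Hba-x* rose from 26.2 and 10.9 CPM to 156 and 47.4 CPM on average. Mural markers, led by *Kcnj8*, summed to 152 to 212 CPM in Control and 119.5 to 147 CPM in Wt1KO. The study lists *Kcnj8* among arterial genes and *Col3a1* among venous markers, so by its reading neither is particular to the cell type of its list. Cardiomyocyte markers (*Myh7*) summed to 108 to 157 CPM in Control and 82.5 to 194.5 CPM in Wt1KO, and epicardial markers (*Aldh1a2*) to 11.0 to 17.5 CPM and 16.6 to 53.9 CPM. In such sorted bulk samples, fewer cells of a type and less RNA per cell cannot be told apart. The library identifiers follow the genotype, so a batch between the genotypes cannot be told apart from the deletion.

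The promoter sequences of *Adora2b* and *Adora1* are shown because these are the genes whose libraries did not overlap between the genotypes (values below), and because the deleted gene encodes a DNA-binding factor. RefSeq windows of the 250 bases before an annotated start were at hand for 7 of the 8 genes (not *Adora2a*), on GRCm38.p6, an earlier build than the GRCm39 used for gene positions here. Each is written 5′ to 3′ along the gene's own strand, and capitals mark matches, on either strand, to the GC box (GGGCGG) or to the 9-base motif GCGGGGGCG bound by EGR-type zinc fingers, which WT1 is also known to bind.
Adora2b (chr11:62248734-62248983, plus strand): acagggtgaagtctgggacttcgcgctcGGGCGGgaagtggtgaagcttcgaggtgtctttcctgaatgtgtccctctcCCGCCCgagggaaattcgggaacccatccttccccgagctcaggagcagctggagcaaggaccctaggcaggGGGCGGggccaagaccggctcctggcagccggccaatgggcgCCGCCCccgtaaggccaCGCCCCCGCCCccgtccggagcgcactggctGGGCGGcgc
Adora1 (chr1:134235458-134235707, minus strand): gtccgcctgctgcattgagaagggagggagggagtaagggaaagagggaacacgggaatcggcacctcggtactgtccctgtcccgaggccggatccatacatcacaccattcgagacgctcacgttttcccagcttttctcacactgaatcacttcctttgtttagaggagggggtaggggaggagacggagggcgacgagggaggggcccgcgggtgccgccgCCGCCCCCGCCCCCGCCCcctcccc
The *Adora2b* window had 69.6% GC, 22 CpG dinucleotides, 6 GC boxes and 1 copy of the 9-base motif, which begins 40 bases before the start and overlaps a GC box. The *Adora1* window had 64.4% GC, 19 CpG dinucleotides, 3 GC boxes and 2 copies of the 9-base motif, which begin 24 and 18 bases before the start and overlap each other and the GC boxes. Over all 32851 windows of this length, 32.7% held a GC box, 2.57% held the 9-base motif, and the medians were 52.4% GC and 6 CpG dinucleotides. The windows shown were richer in GC and CpG than these medians, and the shares were not matched for base composition. A second *Adora1* window, further downstream at chr1:134234857-134235106, held neither motif. The *Nt5e* window held 4 GC boxes and no 9-base motif, the *Ada* window held 1 GC box, and the *Adora3* window and both *Entpd1* windows held none. Of the 8 *Slc29a1* windows, 4 held a GC box and none the 9-base motif. Searches on both strands for GCGTGGG (a shorter motif of WT1, in 4.3% of all windows), ACGTG (the core of hypoxia response elements, in 16.6%) and TGACGTCA (the cyclic AMP response element, in 1.55%) found ACGTG once in the *Adora1* window, beginning 129 bases before the start, and none of these in the *Adora2b* window. Among the *Slc29a1* windows, 2 held GCGTGGG (beginning 87 and 104 bases before the start) and 3 held ACGTG (4 matches in all). Such matches describe the letters only, and no binding was measured.

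None of the 7 genes that could be tested passed edgeR's threshold for a differentially expressed gene (DEG), an adjusted p under 0.05 with an absolute log2 fold change above 0.58. That rule called 0.0736% of the 16296 genes tested. At an unadjusted p under 0.05 with the same fold change limit, 2 of the 7 passed, *Adora1* (higher in Wt1KO) and *Adora2b* (lower), beside 10.1% of all genes tested. DESeq2 at its default settings, the tool named in the study's methods, called the same 2 genes, beside 4.83% of its 15886 genes. They were also the 2 genes whose Control and Wt1KO libraries did not overlap, as was the case for 19.3% of all genes tested. *Adora1* entered the test only through the group in which it was high, so its place in these counts describes the gene and is no support. The eighth gene, *Adora3*, had too few counts to be tested. The plot of the 8 genes by library shows these values.

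**Figure D1:**
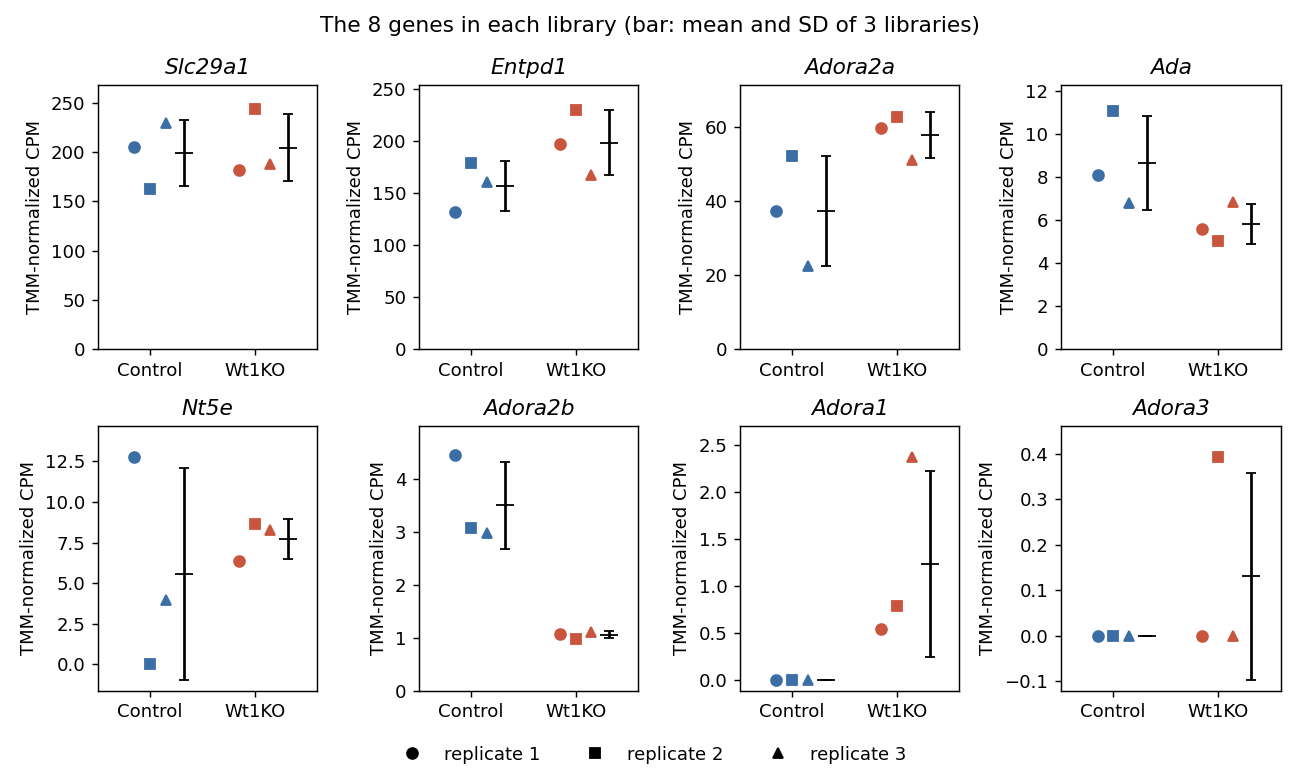
TMM-normalized CPM (vertical axes, a separate scale for each gene) of the 8 genes in the 3 Control (blue) and 3 Wt1KO (red) libraries, with marker shapes for replicates and a bar for the mean ± SD of 3 libraries. The genotypes are apart only for *Adora2b*, between 2.98 and 4.45 CPM in Control and 0.983 and 1.11 CPM in Wt1KO, and for *Adora1*, at 0 in each Control library; *Nt5e* spreads from 0.0203 to 12.8 CPM within Control.

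*Adora2a* (ENSMUSG00000020178.7; chromosome 10, 75152560 to 75170628), whose receptor couples to Gs and is activated by low concentrations of adenosine, was the most abundant adenosine receptor transcript. It had 1673, 2576 and 649 counts in Control replicates 1, 2 and 3 and 2340, 2240 and 1291 counts in the Wt1KO replicates, or 37.4, 52.2 and 22.5 CPM against 59.9, 62.9 and 51.1 CPM. Control replicate 2 was above the lowest Wt1KO library, so the genotypes overlapped, and Control varied more (37.4 ± 14.9 CPM, SD, n = 3) than Wt1KO (57.9 ± 6.14 CPM, SD, n = 3). The fitted log2 difference was 0.63 (standard error 0.29, 95% interval -0.01 to 1.28, adjusted p = 0.390, edgeR), and it ranged from 0.37 without Control replicate 3 to 0.95 without Control replicate 2.

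*Adora2b* (ENSMUSG00000018500.3; chromosome 11, 62139804 to 62157279), which encodes the Gs-coupled receptor of lower affinity that is known to be induced under low oxygen, had 199, 151 and 86 counts in Control and 42, 35 and 28 counts in Wt1KO libraries. These are 4.45, 3.06 and 2.98 CPM against 1.07, 0.983 and 1.11 CPM, so that every Wt1KO library lay below every Control library. The mean was 3.50 ± 0.824 CPM (SD, n = 3) in Control and 1.06 ± 0.0648 CPM (SD, n = 3) in Wt1KO, a level 3.31-fold higher in Control by the fitted fold. Its log2 fold change of -1.73 (standard error 0.70, 95% interval -3.30 to -0.15) had an unadjusted p of 0.0351 and an adjusted p of 0.341 with edgeR's quasi-likelihood test. DESeq2 gave -1.73 with an adjusted p of 0.0297, and the other alternatives to the edgeR fit gave adjusted p-values of 0.268 to 0.628. Dropping 1 library at a time kept the estimate between -1.83 and -1.51. Macrophage markers also summed higher in Control, most in replicate 2, and *Adora2b* was highest in Control replicate 1. Without Control replicate 2 the log2 fold change was -1.81 for *Adora2b* and -0.79 for the macrophage marker *Csf1r*. The part of macrophage RNA in the difference was not tested.

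*Adora1* (ENSMUSG00000042429.9; chromosome 1, 134126948 to 134163579), whose receptor couples to Gi and is best known from cardiomyocytes and neurons, had no count in any Control library and 21, 28 and 60 counts in the Wt1KO libraries. The Control libraries could have held it at up to 0.0670, 0.0608 and 0.104 CPM, and the Wt1KO libraries were at 0.537, 0.786 and 2.37 CPM, all above these limits. Taken against the mean Control floor of 3 counts per library, the Wt1KO mean of 1.23 ± 0.996 CPM (SD, n = 3) was at least 15.95-fold higher. This bound covers counting error only, rests partly on Wt1KO replicate 3 and was 8.56-fold without it. The unadjusted p was 0.00382 and the adjusted p 0.207 with edgeR's quasi-likelihood test, and DESeq2 gave an adjusted p of 0.00133. Since *Adora1* passed the filter on low counts through its Wt1KO libraries alone, a tested difference could only be in that direction, and these p-values are given as a description. Wt1KO replicate 3 had the most *Adora1* and also the highest sum of cardiomyocyte markers (194.5 CPM). Wt1KO replicate 2, second in *Adora1*, had the lowest sum (82.5 CPM). Of the 8 cardiomyocyte markers 1, *Nkx2-5*, had no counts in Control. It had 0, 9 and 23 counts in Wt1KO replicates 1, 2 and 3, too few to be tested. The summed fibroblast and endocardial markers were higher in each Wt1KO than in each Control library, with *Plvap* adding the most to the endocardial sum, whereas the epicardial sums overlapped. Singly, 5 of 8 fibroblast, 3 of 5 endocardial and 3 of 7 epicardial markers were higher in Wt1KO without overlap. Of all 16296 genes tested, 1684 were higher in Wt1KO without overlap. The part of these cells in the *Adora1* counts was not tested. Exons of *Adora1* overlap those of *Mybph* on the opposite strand over 3361 bases, and the libraries do not keep the strand, but *Mybph* had 0 counts in all 6 libraries.

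*Adora3* (ENSMUSG00000000562.6; chromosome 3, 105778174 to 105816242), the other Gi-coupled receptor gene, known from mast cells and macrophages, was detected in 1 of 6 libraries, with 14 counts (0.393 CPM) in Wt1KO replicate 2. With 0 counts elsewhere it was at or under the floor of detection in both genotypes but for that library. Its exons share 670 and 154 bases with *Gm53046* and *Tmigd3* on the same strand, both at 0 counts in every library.

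Compared per kb of exonic length, so that genes could be set beside each other, the 4 receptors together were at 9.51, 11.6 and 5.89 CPM per kb in Control and 12.0, 12.7 and 10.7 CPM per kb in Wt1KO libraries. *Adora2a* made up 77.7 ± 7.02% (SD, n = 3) of this receptor sum in Control and 93.2 ± 1.94% (SD, n = 3) in Wt1KO. *Adora2b* made up 25.3, 14.3 and 27.4% of it in Control and 4.82, 4.18 and 5.60% in Wt1KO libraries, with no overlap. *Adora1* took the remainder in Wt1KO replicates 1 and 3, at 0.695% and 3.47%, and in replicate 2, at 0.964%, together with *Adora3* at 0.829%. The log2 ratio of *Adora2a* to *Adora2b*, the balance between the Gs-coupled receptors, was 1.57, 2.59 and 1.41 in Control and 4.29, 4.49 and 4.02 in Wt1KO libraries. The means were 1.85 ± 0.639 and 4.27 ± 0.238 (SD, n = 3 each), a difference of 2.42 in the log2 ratio, without overlap. A two-sided exact permutation test gave p = 0.1, the lowest value possible with 3 against 3, which any ratio without overlap reaches. Without any 1 library the difference was between 2.19 and 2.78. Both the higher *Adora2a* and the lower *Adora2b* values enter this ratio, and neither gene passed edgeR's threshold on its own. *Adora2b* alone had no overlap, as did 19.3% of all genes tested, so the ratio is no separate support.

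**Figure D2:**
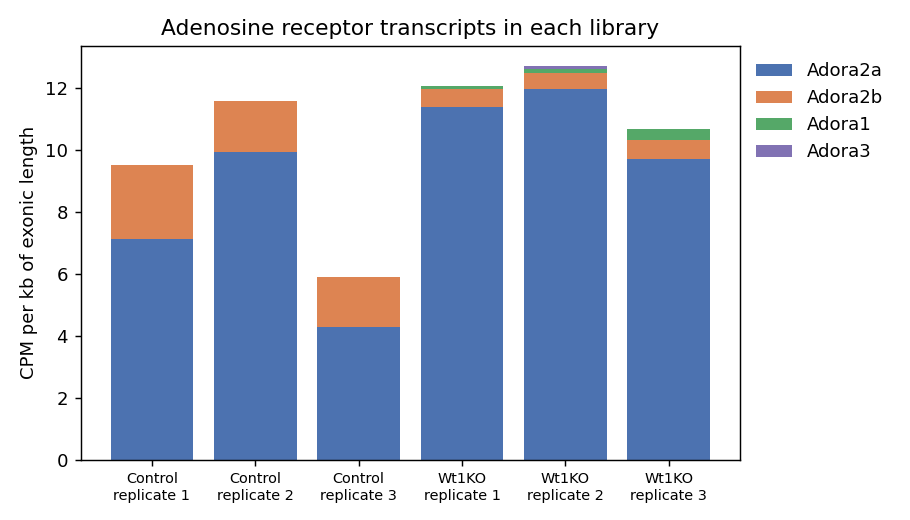
Level of the 4 adenosine receptor transcripts in CPM per kb of exonic length (vertical axis, from 0), stacked for each of the 3 Control and 3 Wt1KO libraries. *Adora2b* takes 14.3 to 27.4% of the bar in Control and 4.18 to 5.60% in Wt1KO libraries, and Control replicate 3 has the lowest sum, 5.89 CPM per kb.

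*Entpd1* (ENSMUSG00000048120.17; chromosome 19, 40600810 to 40731585), the ATP and ADP hydrolase, was abundant in each library, with 5893, 8844 and 4630 counts in Control and 7719, 8203 and 4242 counts in Wt1KO. Its levels of 132, 179 and 160.5 CPM in Control and 197, 230.3 and 168 CPM in Wt1KO overlapped. The fitted log2 difference was 0.34 (standard error 0.18, 95% interval -0.07 to 0.75, adjusted p = 0.486, edgeR), an interval that passes the fold change limit only upwards.

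*Nt5e* (ENSMUSG00000032420.9; chromosome 9, 88209089 to 88254146), which makes adenosine from AMP, varied more within Control than between the genotypes. Control replicates 1, 2 and 3 had 572, 1 and 115 counts, and the Wt1KO replicates had 248, 307 and 209. The single count in Control replicate 2 lies under the floor of 3 counts although that library was among the deepest (44736496 counts). In CPM these are 12.8, 0.0203 and 3.99 in Control and 6.34, 8.62 and 8.27 in Wt1KO, so the Wt1KO libraries lay within the Control range. The log2 fold change of 0.47 (standard error 1.19, 95% interval -2.22 to 3.16, adjusted p = 0.931, edgeR) turned to -0.12 without Control replicate 2 and was 1.97 without Control replicate 1, so no direction can be given. For the same reason the log2 ratio of *Nt5e* to *Entpd1* per kb, at -3.67, -13.4 and -5.63 in Control and -5.26, -5.04 and -4.64 in Wt1KO, differed by 2.59 with all libraries (two-sided exact permutation test, p = 0.7) and by -0.33 without Control replicate 2.

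*Slc29a1* (ENSMUSG00000023942.16; chromosome 17, 45896125 to 45910733), the equilibrative nucleoside transporter that lets adenosine cross the plasma membrane, was at 205, 163 and 229 CPM in Control and 182, 244 and 187 CPM in Wt1KO libraries. The genotypes overlapped, with 1 Wt1KO library above and 1 Control library below all others, and with means of 199 ± 33.5 and 204 ± 34.3 CPM (SD, n = 3 each). The fitted log2 difference was 0.04 (standard error 0.19, 95% interval -0.38 to 0.46, adjusted p = 0.967, edgeR), an interval within the fold change limit on both sides, and the estimate turned to -0.10 with library size alone. It was on average the highest of the 8 genes per kb, and its profile over the 6 libraries was most like those of *Ube3c*, *Acta2* and *Cxxc1* (Pearson r of 0.975 each on log2 CPM). Among the 8469 genes compared, 55 had an r of 0.9 or more. The number to be expected over 6 libraries was not computed, so no weight is placed on this likeness.

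*Ada* (ENSMUSG00000017697.4; chromosome 2, 163565705 to 163592159), which deaminates adenosine to inosine, had 363, 546 and 196 counts in Control and 219, 179 and 173 counts in Wt1KO, or 8.11, 11.1 and 6.80 CPM against 5.60, 5.03 and 6.84 CPM. Wt1KO replicate 3 lay just above Control replicate 3, so the groups overlapped by 1 library. The fitted log2 difference was -0.57 (standard error 0.38, 95% interval -1.42 to 0.27, adjusted p = 0.594, edgeR). Its exons overlap those of *Pkig* on the opposite strand over 1069 bases, and *Pkig*, with 752 to 1660 counts per library, had a log2 fold change of 0.34, so reads of the pair cannot be told apart there.

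Ordered by mean level per kb, Control ECs had *Slc29a1* (25.7 CPM per kb) and *Entpd1* (22.1) first, overlapping each other, then *Adora2a* (7.10), apart from both neighbours. *Adora2b* (1.89), *Ada* (1.63) and *Nt5e* (0.638) followed with overlapping libraries, and *Adora1* and *Adora3* were not detected. In Wt1KO ECs *Entpd1* (27.9 CPM per kb) and *Slc29a1* (26.5) again overlapped at the top, followed by *Adora2a* (11.0) and by *Ada* (1.10) and *Nt5e* (0.884), which overlapped each other. *Adora2b* (0.570 CPM per kb) ranked below these in Wt1KO, and every one of its libraries was under every *Nt5e* and *Ada* library there. *Adora1* (0.192) and *Adora3* (0.0351) came last.

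**Figure D3:**
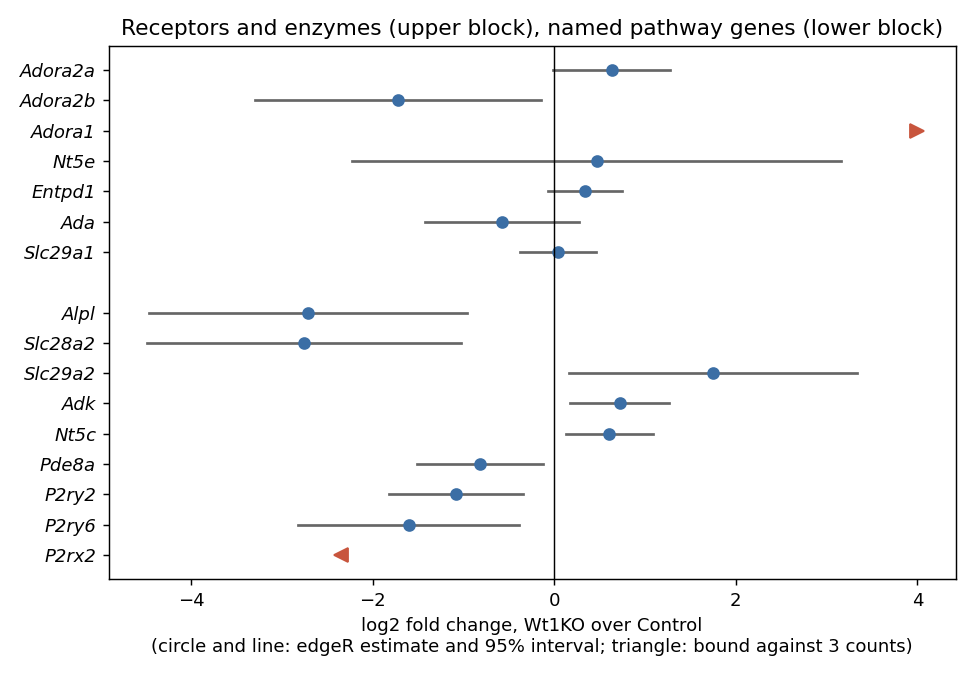
Log2 fold change of Wt1KO over Control (horizontal axis) for the 7 tested genes (upper block) and for the genes of the surrounding pathway that passed an unadjusted p under 0.05 with the fold change limit (lower block), as edgeR's estimate (circle) with its 95% interval (line), or as the bound against 3 counts per library (triangle). Among the upper genes only the interval of *Adora2b*, -3.30 to -0.15, and the bound of *Adora1* lie clear of 0.

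Around these genes, 5 lists of the nucleotide and adenosine pathway held 89 genes in the table, of which 71 were tested. No gene of these lists was called by edgeR (smallest adjusted p 0.217), while 3 higher and 6 lower genes passed the unadjusted rule and DESeq2 called 4, all of them lower in Wt1KO. These are 12.7% of the genes tested by edgeR and 5.71% of the 70 with a DESeq2 value, near the 10.1% and 4.83% of all genes. *P2rx2*, among the 6 lower genes, was tested only through its Control libraries, so its place there is no support. No overlap between the genotypes was seen for 12 of the 71 genes, beside 19.3% of all genes tested. The median log2 fold change was -0.17 over the 71 genes and -0.03 over all genes tested. Of all 16296 genes tested, 8474 had a log2 fold change below 0, and 10232 did with library size alone. Scaling by library size alone moved the median of all genes by -0.15, and the directions that follow were the same under it unless stated.

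The P2 receptors, many of which respond to extracellular nucleotides such as ATP and ADP, lay lowest. Of 15 genes 9 were tested, and 8 of the 9 had a log2 fold change below 0 (9 of 9 with library size alone), with a median of -1.26. *P2ry2*, the ATP and UTP receptor of ECs and the highest P2 gene per kb, was at 56.5, 23.9 and 37.8 CPM in Control and 20.9, 20.8 and 14.1 CPM in Wt1KO (log2 fold change -1.08, standard error 0.33, adjusted p = 0.240 with edgeR and 0.0413 with DESeq2). *P2ry6*, a UDP receptor, was at 7.17, 10.7 and 5.34 CPM in Control and 2.87, 3.43 and 1.31 CPM in Wt1KO (log2 fold change -1.61, standard error 0.54, adjusted p = 0.268 with edgeR and 0.0477 with DESeq2). Both genes had no overlap between the genotypes, as was the case for 19.3% of all genes tested. *P2rx2*, an ATP-gated channel, had 36, 0 and 18 counts in Control and none in Wt1KO libraries, so Control replicate 2 was like the Wt1KO libraries. Its Control mean was, by counting error alone, at least 5.11-fold higher against a floor of 3 counts per library (3.35-fold without Control replicate 1). The adjusted p was 0.356 with edgeR and 0.265 with DESeq2. It was tested only through its Control libraries, so its place in the counts and medians of this list, here and below, is no support. The macrophage markers were lower in Wt1KO together with these receptors. Without Control replicate 2, the library with the most macrophage marker RNA, 8 of the 9 receptors had a log2 fold change below 0. Their median was -1.13, and *P2ry2* and *P2ry6* were at -1.34 and -1.30. The macrophage markers then had a median of -0.57, with *Csf1r* at -0.79. Over all libraries *P2ry6* had the same order as *Csf1r* (153, 327 and 103 CPM in Control, 72.4, 92.1 and 57.1 CPM in Wt1KO). *P2ry2* did not, being highest in Control replicate 1. The part of macrophage RNA in these values was not tested.

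In the nucleotide hydrolysis list, 4 of 10 tested genes had a log2 fold change above 0 and 6 below. *Enpp3*, a pyrophosphatase of extracellular nucleotides and the highest of them per kb, was at 66.7, 36.9 and 46.5 CPM in Control and 37.4, 23.3 and 53.7 CPM in Wt1KO. *Alpl*, tissue-nonspecific alkaline phosphatase, which can also form adenosine from AMP, was at 3.89, 2.90 and 7.84 CPM in Control and 0.358, 1.15 and 0.712 CPM in Wt1KO, without overlap (log2 fold change -2.71, standard error 0.78, adjusted p = 0.221 with edgeR and 0.00587 with DESeq2).

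Among 18 tested genes of adenosine uptake and metabolism, 9 lay above 0 and 9 below (7 and 11 with library size alone). *Slc28a2*, a sodium-coupled transporter that concentrates adenosine, was at 13.7, 5.96 and 22.1 CPM in Control and 3.71, 1.99 and 0.396 CPM in Wt1KO libraries. The fitted change was -2.76 on the log2 scale (standard error 0.76, adjusted p = 0.217 with edgeR and 0.00827 with DESeq2). *Slc29a2*, an equilibrative transporter related to *Slc29a1*, was at 0.715, 1.22 and 1.80 CPM in Control and 2.69, 5.64 and 4.23 CPM in Wt1KO (log2 fold change 1.75, standard error 0.70, adjusted p = 0.339, edgeR). *Adk*, the kinase that returns adenosine to AMP inside the cell, was at 13.2, 18.2 and 21.1 CPM in Control and 29.1, 27.7 and 29.7 CPM in Wt1KO (log2 fold change 0.72, standard error 0.24, adjusted p = 0.267, edgeR). *Nt5c*, a cytosolic nucleotidase, was at 17.4, 21.7 and 19.3 CPM in Control and 26.3, 31.7 and 30.9 CPM in Wt1KO (log2 fold change 0.61, standard error 0.21, adjusted p = 0.284, edgeR). None of these 4 genes, named for their unadjusted p, overlapped between the genotypes. Of all genes tested, 19.3% did not overlap. *Pnp*, which splits inosine and was the highest of this list per kb, was at 113 CPM on average in Control and had a log2 fold change of -0.07.

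Downstream of the receptors, 24 of 30 tested genes of G proteins, adenylyl cyclases, cyclic AMP effectors and phosphodiesterases had a log2 fold change below 0 (25 with library size alone), with a median of -0.23. *Gnas*, which encodes the Gs alpha subunit and was by far the highest per kb, was at 3263, 2532 and 1913 CPM in Control and 2648, 2318 and 2131 CPM in Wt1KO, within the Control range. *Pde8a*, a cyclic AMP phosphodiesterase, was the only gene of this list past the unadjusted rule, at 101, 78.5 and 39.8 CPM in Control and 36.2, 41.3 and 46.8 CPM in Wt1KO (log2 fold change -0.82, standard error 0.31, adjusted p = 0.309, edgeR), with overlapping libraries. All 4 tested genes of ATP release lay above 0 (3 of 4 with library size alone or without Control replicate 2), the highest per kb being the volume-regulated channel subunit *Lrrc8a*, at 49.6, 55.8 and 74.3 CPM in Control and 82.7, 83.5 and 79.6 CPM in Wt1KO (log2 fold change 0.45, standard error 0.18, adjusted p = 0.343, edgeR).

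**Figure D4:**
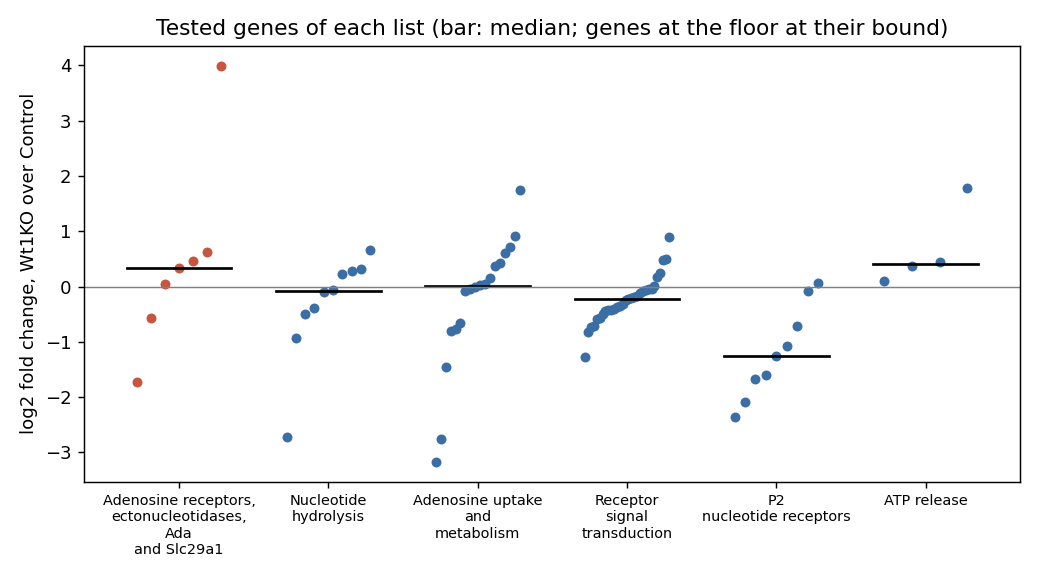
Log2 fold change of Wt1KO over Control (vertical axis) of each tested gene of the receptor and enzyme group (red) and of the 5 pathway lists (blue), sorted within each list, with a bar for the list's median and genes without counts in a genotype drawn at their bound. The P2 receptors sit lowest, with a median of -1.26 and 8 of 9 genes below 0 (9 of 9 when scaled by library size alone), and the 2 genes of the red group below 0 are *Ada* and *Adora2b*. *P2rx2*, among the 8 P2 genes below 0, was tested only through its Control libraries.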

How the data were processed

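RNA of ECs sorted by FACS from E15.5 ventricles was sequenced after SMART-seq2 amplification (oligo-dT primed, without molecular identifiers or strand). The authors aligned reads with STAR 2.7.8a and quantified genes with RSEM 1.3.0, and deposited its expected counts for each gene as whole numbers, not normalized. The submitters' processing notes name GRCm38, whereas the study's methods name GRCm39 with GENCODE vM27. Gene positions and exonic lengths were taken from a later GENCODE annotation of GRCm39, and promoter windows from RefSeq (GRCm38.p6).

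Groups and replicate numbers came from the sample labels. The libraries held 26037324 to 44779020 counts, so by counting error alone a gene without counts could have been present at up to the CPM of 3 counts. The 16296 genes that reached 10 counts in 2 or more libraries were tested in R 4.3.3 with edgeR 4.0.16 (TMM, quasi-likelihood F test, Benjamini-Hochberg adjustment over all genes tested, no covariate). DESeq2 1.42.0, limma-voom (limma 3.58.1), other normalizations and filters, other call rules, the replicate number as a block and leaving out each library were the alternatives. Each standard error was obtained by dividing the fitted change by the square root of F, and 95% intervals use edgeR's total degrees of freedom. Log2 ratios were compared by exact permutation tests. The fits were tested on simulated counts. Named are all 8 genes, *Wt1*, the gene of each pathway list highest per kb, those past the unadjusted rule, and the marker of each cell type with the highest mean CPM over the 6 libraries. *Mybph*, *Pkig*, *Gm53046*, *Tmigd3*, *Rn18s*, *Hbb-y* and *Hba-x* were named after their values were seen. The 8 genes, lists and motifs were chosen with earlier results of these data known.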

Additional observations from a re-analysis of the deposited data

How the results depend on the processing

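No alternative fit with an adjusted p called any of the 7 tested genes apart from DESeq2, which called 2, as did the unadjusted rule. For the pathway lists, where edgeR called 0, the unadjusted rule gave 9 genes, DESeq2 4 and no filter on low counts 1 (*Slc28a2*); the cause of the difference between the tools was not tested. The log2 fold change of *Slc29a1* turned to -0.10 with library size alone and ranged from -0.11 to 0.16 when 1 library at a time was dropped, and that of *Nt5e* ranged from -0.12 to 1.97 and was 3.09 with limma-voom and 1.66 with the replicate block. The difference in the log2 ratio of *Nt5e* to *Entpd1* ranged from -0.33 to 4.54 when single libraries were left out. The other log2 fold changes of the 7 genes kept their direction in all 14 alternative fits. By CPM without the length, *Adora2b* had rank 6 in place of 4 in Control, behind *Ada* and *Nt5e*. In Wt1KO, *Adora1* had rank 6 by CPM in place of 7 and *Adora2b* rank 7 in place of 6, and *Slc29a1* and *Entpd1* also changed places. Same-numbered libraries did not deviate together (correlations 0.0566, 0.00448 and 0.0201), and the replicate block called 0 of the 7 genes and 0 of the lists, with -2.92 for *Wt1* and -1.70 for *Adora2b*. At 28 to 199 counts for *Adora2b* and 60 or fewer for *Adora1*, depth limits both values.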
